A study of Mus musculus with 6 samples.

Results

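The genes described here are the ligands of the vascular endothelial growth factor (VEGF) and platelet-derived growth factor (PDGF) families with the PDGF receptors. They were the rows whose Ensembl identifier maps to Vegfa, Vegfb, Vegfc, Vegfd, Pgf, Pdgfa, Pdgfb, Pdgfc, Pdgfra or Pdgfrb, so 10 genes of the 29275 in the files. All 10 were found, and all 10 passed the filter on low values, which 12284 genes passed (at least 1 FPKM, fragments per kilobase of exon, scaled to library depth, in at least 3 of the 6 libraries). RNA sequencing was done on primary Sertoli cells, the somatic cells that nurse the germ cells in the seminiferous tubule, grown from mouse testis at 34 degrees Celsius in medium with 10% serum and 0.25 ug/ml EGF. Wild-type cells, untreated per the labels, gave 3 libraries (WT1, WT2 and WT3, by replicate number), and 3 more (cKO1, cKO2 and cKO3) carry the label of a conditional knockout, cKO, of Arhgef15. The question of the comparison is what the loss of Arhgef15 changes in Sertoli cell transcripts. The sources used here do not give the strain and age of the mice, the promoter that drives Cre or the exons deleted.

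VEGF ligands are secreted growth factors of blood and lymphatic vessels. Vegfa acts through the receptor tyrosine kinases Flt1 and Kdr, Vegfb and Pgf bind Flt1, and Vegfc and Vegfd are the ligands of Flt4, the receptor of lymphatic endothelium. PDGF chains pair into dimers that recruit mesenchymal cells: the A and C chains act through Pdgfra, and the B chain acts through Pdgfra and Pdgfrb, the receptor of pericytes. In the testis, Sertoli cells are known as a source of PDGF for Pdgfra-bearing interstitial cells, the precursors of Leydig cells among them. Arhgef15 encodes a guanine nucleotide exchange factor that is known from endothelial cells, where it acts downstream of VEGF on Cdc42.

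Arhgef15 itself (ENSMUSG00000052921) was listed at 0.123, 0.0237 and 0.349 FPKM in WT1, WT2 and WT3 and at 0.501, 0.322 and 0.338 FPKM in cKO1, cKO2 and cKO3. It was thus not lower in the libraries labelled cKO, and groups are named by their labels. These levels are near the floor. They correspond to about 15, 3 and 46 fragments in WT1, WT2 and WT3 and to 63, 35 and 44 in the cKO libraries. As values for the whole gene, with the deleted exons not given, they cannot check the labels. The libraries held 16790000 to 20320000 fragments, read from the step between FPKM values. WT3 stood apart: across the tested genes its Pearson correlation of log2(FPKM + 1) was 0.860 and 0.898 with the other wild-type libraries and 0.921 to 0.947 with the cKO libraries, whereas WT1 and WT2 correlated at 0.962. The comparison of the 10 genes is therefore given with and without WT3. WT3 was picked from these same data by its likeness to the cKO libraries, so leaving it out by itself favours separation of the groups. Of 12284 tested genes, 2 passed with WT3 and 478 without it. Results without WT3 are given as a description, not as a test of genotype. The Sertoli cell label was checked against 13 markers. Clu, a secreted glycoprotein of Sertoli cells, was at 79.2 to 475.8 FPKM and the transcription factor Gata4 at 29.6 to 63.1 FPKM. Fshr, the receptor for follicle-stimulating hormone, was listed at 0 in WT1 and WT2 and reached 1.42 FPKM at most, and Amh reached 1.17 FPKM. Markers of other cells were present too. The Sertoli, macrophage and peritubular myoid marker sums were 280.7, 1084 and 3050 FPKM in WT1 and 664.6, 271.4 and 672.7 FPKM in cKO1. Such sums do not give cell shares, and the levels below are those of whole cultures, not of Sertoli cells alone.

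The promoters of Vegfa, Pgf, Pdgfa and Vegfd are shown because the first 3 genes were low in WT1 and WT2, the libraries in which Vegfd was high. The sequences are RefSeq's (GRCm38.p6), the 250 bases before the outermost listed start, 5' to 3' on the strand of the gene. Of the 10 members, 8 matched a promoter entry, and Pdgfb and Pdgfrb did not. Capitals mark GGGCGG (the GC box), ACGTG or GCGTG (the core bound by hypoxia-inducible factor) and TATAAA (the TATA box), each searched on both strands.
Vegfa, chr17:46032378-46032627, minus strand: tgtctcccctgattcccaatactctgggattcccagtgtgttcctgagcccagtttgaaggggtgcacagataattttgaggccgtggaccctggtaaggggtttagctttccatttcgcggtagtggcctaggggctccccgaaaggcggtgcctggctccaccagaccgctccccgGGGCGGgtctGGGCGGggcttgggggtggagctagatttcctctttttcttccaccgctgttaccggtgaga
Pgf, chr12:85177314-85177563, minus strand: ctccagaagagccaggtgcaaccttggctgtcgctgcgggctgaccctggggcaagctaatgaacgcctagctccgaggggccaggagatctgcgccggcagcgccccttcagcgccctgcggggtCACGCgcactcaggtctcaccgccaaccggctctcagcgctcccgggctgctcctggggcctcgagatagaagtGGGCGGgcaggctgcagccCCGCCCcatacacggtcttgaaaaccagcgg
Pdgfa, chr5:138994945-138995194, minus strand: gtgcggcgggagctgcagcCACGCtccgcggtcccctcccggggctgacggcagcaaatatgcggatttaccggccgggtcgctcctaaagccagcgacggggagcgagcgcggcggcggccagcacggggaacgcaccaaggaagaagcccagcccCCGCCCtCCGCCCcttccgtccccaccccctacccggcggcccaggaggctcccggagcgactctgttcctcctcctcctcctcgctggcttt
Vegfd, chrX:164373272-164373521, plus strand: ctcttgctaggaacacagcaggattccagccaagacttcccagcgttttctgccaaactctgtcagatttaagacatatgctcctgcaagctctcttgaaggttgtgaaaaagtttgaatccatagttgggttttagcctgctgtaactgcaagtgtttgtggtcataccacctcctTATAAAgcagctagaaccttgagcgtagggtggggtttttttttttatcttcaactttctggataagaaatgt
The Vegfa, Pgf and Pdgfa windows each held 2 GC boxes and 11, 20 and 28 CpG dinucleotides, and none of the 3 held TATAAA. The Vegfd window held 1 TATAAA, no GC box and 2 CpG dinucleotides. Pgf and Pdgfa each held 1 match to the hypoxia core. Of the matched members not shown, Vegfb, which was highest in WT1, held 4 GC boxes, 2 hypoxia cores and 26 CpG dinucleotides. Vegfc held 2 GC boxes and 30 CpG dinucleotides. Pdgfc and Pdgfra held no GC box and 3 and 4 CpG dinucleotides. None of these windows held TATAAA, so of the 8 matched members only Vegfd held it. A link of TATAAA to the levels was not tested. GC boxes, hypoxia cores and CpG numbers did not sort the members by their levels in WT1 and WT2. Of 32851 RefSeq promoters of the same length, 32.7% held a GC box, 38.6% a hypoxia core and 12.4% TATAAA, and the median CpG number was 6. A match of such letters is a description of the sequence, not a bound site.

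Vegfa, the main angiogenic ligand, had the highest mean of the 10 genes over the 6 libraries. It was at 29.3, 31.4 and 206.7 FPKM in WT1, WT2 and WT3 and at 177.3, 160.7 and 67.9 FPKM in cKO1, cKO2 and cKO3. The highest library was a wild-type one, so the groups overlapped. On the log2(FPKM + 1) scale, used for all differences here, cKO minus wild-type was 1.10 (SE 0.76, 95% interval -0.67 to 2.86), which did not pass (limma, Benjamini-Hochberg adjusted p = 0.829). Within the wild-type group, replicate 3 was 6.81-fold above the mean of replicates 1 and 2, and the cKO mean was 4.46-fold above that same mean. The cultures are bulk samples, in which fewer cells of a type and less RNA per cell cannot be told apart.

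Vegfd (also known as Figf) went the other way. It was at 89.8, 146.3 and 9.16 FPKM in WT1, WT2 and WT3 and at 9.38, 6.23 and 14.7 FPKM in cKO1, cKO2 and cKO3. WT1 and WT2 were the high libraries, and WT3 lay inside the cKO range. The log2 difference was -2.28 with an SE of 0.91 (95% interval -4.42 to -0.15; limma, adjusted p = 0.701). WT3 had 0.0776 times the mean of the other wild-type libraries, and the cKO mean was 0.0857 times that mean. Vegfd had the widest range of the 10 genes, 23.5-fold from the lowest to the highest library.

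Pgf, placenta growth factor, ordered the libraries as Vegfa did, except that WT1 and WT2 changed places. It was at 7.33, 2.81 and 41.1 FPKM in WT1, WT2 and WT3 and at 33.7, 25.9 and 12.9 FPKM in cKO1, cKO2 and cKO3. The highest value was again in WT3 and the lowest cKO value in cKO3. The log2 difference was 1.09 with an SE of 0.82 (limma, adjusted p = 0.840). Its lowest value corresponds to about 159 fragments at the exonic length of the reference annotation, so counting error is small beside the spread between libraries.

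Vegfb and Vegfc had the narrowest ranges of the VEGF ligands, with 2.48-fold or less between the lowest and the highest library. Vegfb, a ligand of Flt1 with roles in lipid uptake, was at 30.0, 18.2 and 14.3 FPKM in the wild-type and at 20.8, 15.1 and 14.3 FPKM in cKO1, cKO2 and cKO3. Vegfc, the lymphatic growth factor, was at 8.30, 10.0 and 6.67 FPKM in the wild-type and at 7.06, 16.5 and 7.36 FPKM in cKO1, cKO2 and cKO3. The groups overlapped for both genes. The log2 differences were -0.25 for Vegfb (SE 0.30, 95% interval -0.96 to 0.45) and 0.19 for Vegfc (SE 0.34, 95% interval -0.60 to 0.99). Neither passed (limma, adjusted p = 0.90 and 0.928).

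**Figure D1:**
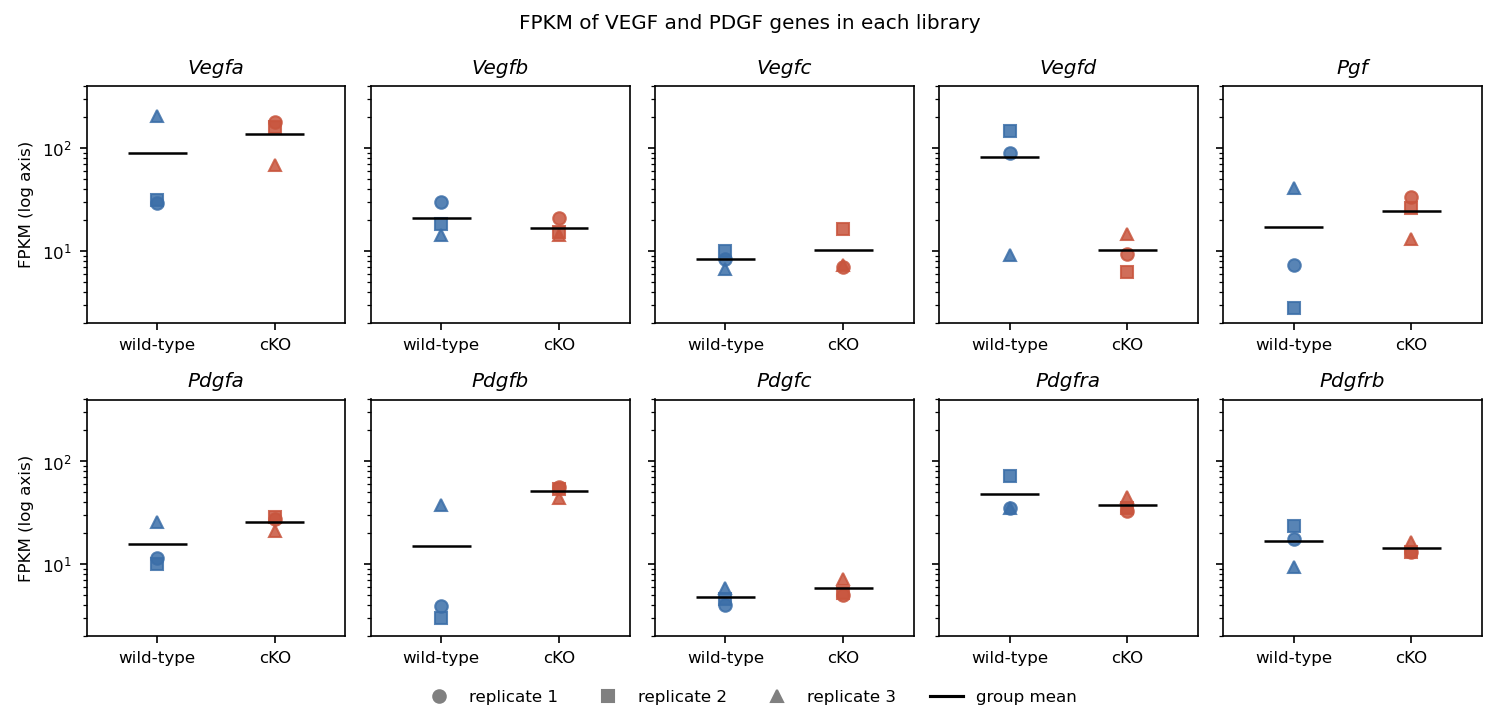
FPKM (log axis) of the 10 genes in each library, with wild-type in blue, cKO in red, the replicate number as the symbol and the group mean as a bar. In Vegfa, Pgf, Pdgfa and Pdgfb the wild-type triangle (WT3) lies above, among or just below the cKO values, and in Vegfd it lies among them at 9.16 FPKM.

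The makeup of the VEGF ligand transcripts differed between libraries. Summed over Vegfa, Vegfb, Vegfc, Vegfd and Pgf, the level was 164.7, 208.7 and 277.9 FPKM in WT1, WT2 and WT3 and 248.3, 224.4 and 117.2 FPKM in cKO1, cKO2 and cKO3. Vegfd made up 54.5% and 70.1% of that sum in WT1 and WT2, and Vegfa 17.8% and 15.0%. In WT3 Vegfa made up 74.4% and Vegfd 3.29%. In cKO1, cKO2 and cKO3 Vegfa made up 71.4%, 71.6% and 58.0% and Vegfd 3.78%, 2.78% and 12.6%. The predominant VEGF ligand transcript was therefore Vegfd in 2 libraries and Vegfa in the other 4. The ratio of Vegfa to Vegfd was 0.326 and 0.215 in WT1 and WT2, 22.6 in WT3 and 4.62 to 25.8 in the cKO libraries.

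Pdgfb, the PDGF B chain, was the 1 member whose groups did not overlap. It was at 3.95, 3.04 and 38.1 FPKM in WT1, WT2 and WT3 and at 56.2, 53.7 and 44.2 FPKM in cKO1, cKO2 and cKO3. All 3 cKO values lay above all 3 wild-type values, with WT3 close below cKO3. The wild-type mean was 15.0 ± 20.0 FPKM and the cKO mean 51.4 ± 6.34 FPKM (SD, n = 3 each), a log2 difference of 2.50 with an SE of 0.79 (95% interval 0.66 to 4.33). It did not pass (limma, adjusted p = 0.608 over 12284 genes, unadjusted p = 0.0142), and p was 0.1 in the exact permutation test (two-sided), the smallest that 3 against 3 allows. This count of 1 in 10 members stands beside 11.3% of all tested genes whose groups did not overlap (6.28% of all with the cKO values higher).

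Pdgfa, the A chain, was at 11.5, 10.1 and 25.8 FPKM in WT1, WT2 and WT3 and at 27.4, 28.9 and 21.3 FPKM in cKO1, cKO2 and cKO3. WT3 lay above cKO3, so the groups overlapped. The log2 difference was 0.79 with an SE of 0.35 (95% interval -0.03 to 1.61; limma, adjusted p = 0.736). Pdgfc, a chain secreted in latent form, was at 4.08, 4.65 and 5.89 FPKM in the wild-type and at 5.04, 5.30 and 7.30 FPKM in cKO1, cKO2 and cKO3. It was the steadiest of the 10 genes, with a range of 1.79-fold, and its log2 difference was 0.22 (SE 0.24, 95% interval -0.32 to 0.77; limma, adjusted p = 0.890). Pdgfd, the remaining PDGF chain and not among the 10, was at 5.65, 10.2 and 5.26 FPKM in the wild-type and at 2.60, 4.10 and 5.68 FPKM in cKO1, cKO2 and cKO3 (log2 difference -0.64, SE 0.33; limma, adjusted p = 0.760).

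Among Pdgfa, Pdgfb and Pdgfc, the leading chain differed between libraries too. Pdgfd is not in this sum. It was above Pdgfb in WT1 and WT2, and in WT2, at 10.19 FPKM, also above Pdgfa at 10.06 FPKM. Pdgfa made up 58.8% and 56.7% of the summed FPKM of Pdgfa, Pdgfb and Pdgfc in WT1 and WT2, and Pdgfb 20.3% and 17.1%. Pdgfb made up 54.6% in WT3 and 63.4%, 61.1% and 60.7% in cKO1, cKO2 and cKO3. The sum was 19.5, 17.8 and 69.8 FPKM in WT1, WT2 and WT3 and 88.7, 88.0 and 72.7 FPKM in cKO1, cKO2 and cKO3. The 2 wild-type libraries with Vegfd as the predominant VEGF ligand were thus the 2 in which Pdgfa exceeded Pdgfb.

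**Figure D2:**
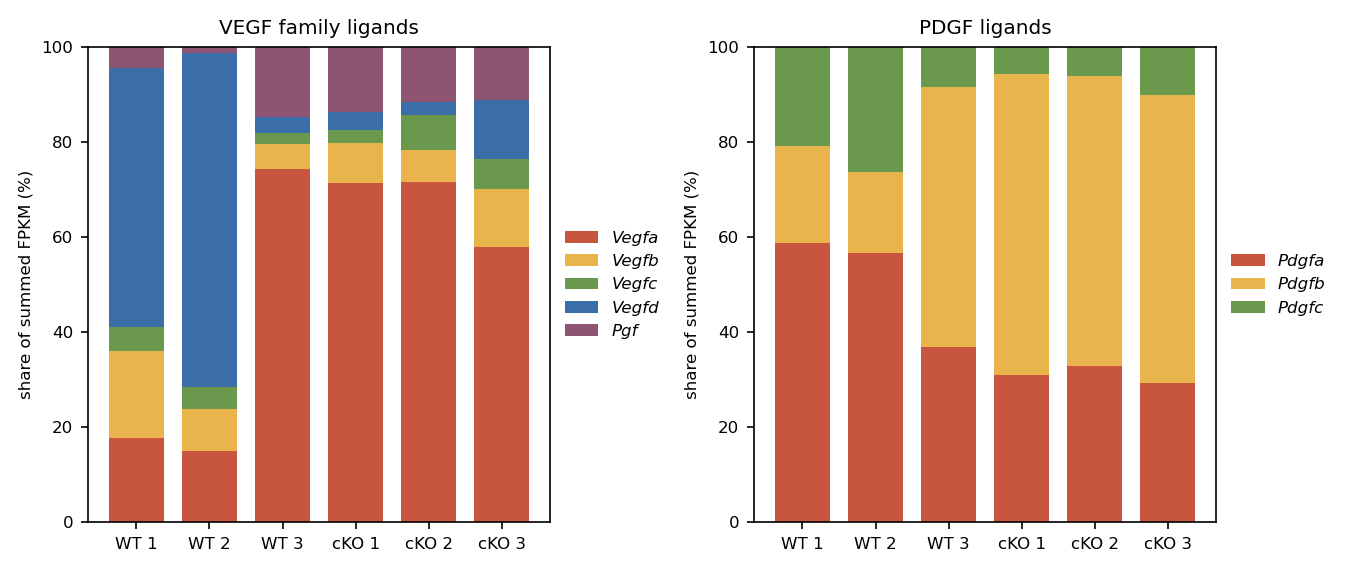
Share (percent) of each gene in the summed FPKM of the VEGF family ligands (left) and of Pdgfa, Pdgfb and Pdgfc (right), 1 bar per library. Pdgfd is not included. Vegfd and Pdgfa lead in WT1 and WT2, and Vegfa and Pdgfb lead in the other 4 libraries.

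The PDGF receptors were highest in WT2, the lowest library for Pdgfa and Pdgfb. Pdgfra, the receptor of interstitial and other mesenchymal cells, was at 35.1, 72.8 and 35.6 FPKM in WT1, WT2 and WT3 and at 32.9, 35.1 and 44.7 FPKM in cKO1, cKO2 and cKO3. Pdgfrb, the receptor of pericytes and other perivascular cells, was at 17.6, 23.5 and 9.55 FPKM in the wild-type and at 13.2, 13.2 and 16.5 FPKM in cKO1, cKO2 and cKO3. The groups overlapped for both receptors. The log2 differences were -0.27 for Pdgfra (SE 0.32, 95% interval -1.0 to 0.47) and -0.15 for Pdgfrb (SE 0.32, 95% interval -0.90 to 0.60), and neither passed (limma, adjusted p = 0.899 and 0.948). Pdgfra was above Pdgfrb in 6 of 6 libraries, by 1.99-fold to 3.73-fold.

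Ordered by the mean FPKM over the 6 libraries, the genes ran from Vegfa (112.2) and Vegfd (45.9) through Pdgfra (42.7), Pdgfb (33.2), Pdgfa (20.8), Pgf (20.6), Vegfb (18.8) and Pdgfrb (15.6) to Vegfc (9.32) and Pdgfc (5.38). Most neighbours in that order did not keep it in each library. Vegfc was above Pdgfc in 6 of 6 libraries and Pdgfrb above Vegfc in 5. Every other neighbouring pair kept the order in 2 to 4 libraries, so the mean does not fix the order of those neighbours. The order was not tested. A changed order can go with large differences: the ratio of Vegfa to Vegfd was 0.215 in WT2 and 25.8 in cKO2. Pdgfra was above Pdgfb in 3 libraries and Vegfd above Pdgfra in 2.

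Of the 10 members, 0 passed the test with all 6 libraries, where 2 of the 12284 tested genes did, or 0.0163% (limma, adjusted p under 0.05). Before adjustment, 2 members had a p under 0.05, Vegfd and Pdgfb, against 6.81% of all tested genes. The median log2 difference of the members was 0.21, with 6 above 0 and 4 below, against 0.08 for all tested genes. These medians were 0.20 and 0.11 without WT3. Without WT3, 4 members passed: Vegfa, Pdgfa and Pdgfb were higher and Vegfd was lower in the libraries labelled cKO. In that comparison 3.89% of all tested genes passed, 2.47% higher and 1.42% lower. The differences were 3.54 for Pdgfb (SE 0.21, limma, adjusted p = 0.00391), -3.45 for Vegfd (SE 0.36, adjusted p = 0.0106), 1.18 for Pdgfa (SE 0.21, adjusted p = 0.0333) and 2.01 for Vegfa (SE 0.40, adjusted p = 0.0466). Pgf, at 2.06 (SE 0.47), missed the threshold (limma, adjusted p = 0.0598). Without this library the groups did not overlap for 7 of 10 members (Vegfa, Pgf, Pdgfa, Pdgfb and Pdgfc higher, Vegfd and Pdgfrb lower), where 41.3% of all tested genes did not overlap. These values describe 2 wild-type libraries against 3, and no label gives a reason to leave WT3 out.

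**Figure D3:**
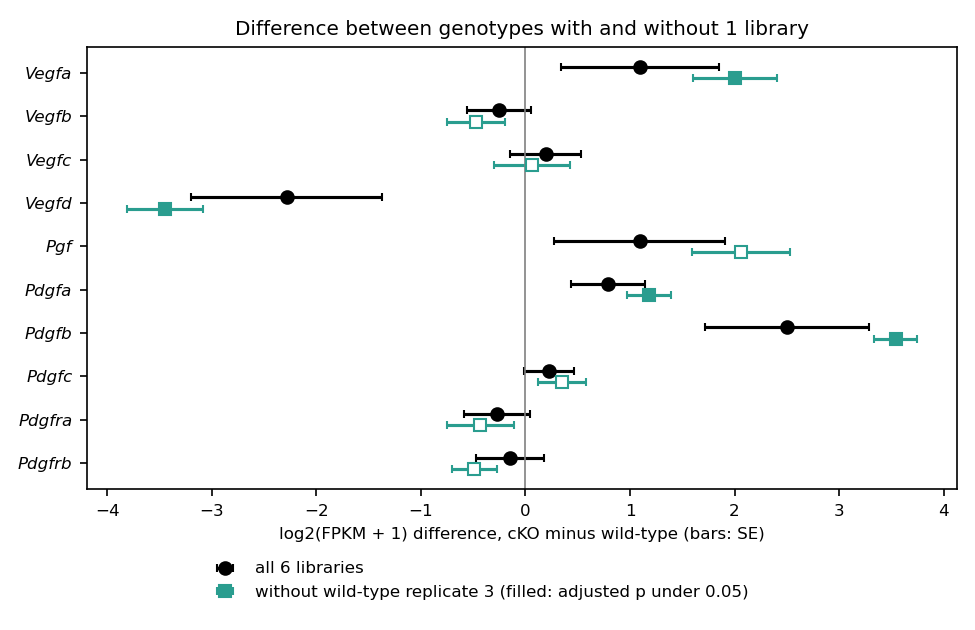
Difference in log2(FPKM + 1), cKO minus wild-type, with the SE as a bar, for all 6 libraries (black) and without WT3 (green, filled where the adjusted p was under 0.05). Vegfa, Vegfd, Pdgfa and Pdgfb are filled, and no gene passed with all 6 libraries.

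The 3 tyrosine kinase receptors of the VEGF ligands were low in all 6 libraries, and lowest in WT1 and WT2. Kdr, the main signalling receptor of Vegfa, was at 0.236, 0.210 and 3.19 FPKM in WT1, WT2 and WT3 and at 4.38, 1.58 and 2.58 FPKM in cKO1, cKO2 and cKO3. Flt1, which binds Vegfa, Vegfb and Pgf, was at 0.111, 0.0570 and 2.25 FPKM in the wild-type and at 1.96, 0.737 and 1.03 FPKM in cKO1, cKO2 and cKO3. The groups overlapped for both genes, with WT3 inside or above the cKO range. Flt4 had 0.884 ± 0.756 and 1.64 ± 0.521 FPKM (SD, n = 3 each). The co-receptor Nrp2 had 8.78 ± 2.17 and 10.7 ± 3.28 FPKM. Of the 5 receptors and co-receptors tested, 0 passed (limma), with a median log2 difference of 0.48. Without WT3 the median was 0.85 and 1 of the 5 passed, Kdr, at 1.59 with an SE of 0.33 (limma, adjusted p = 0.0491). The share of all tested genes that passed was 3.89% there.

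In 10 of 12 endothelial markers WT1 and WT2 lay below all cKO libraries, as in Kdr and Flt1. Without WT3, 41.3% of all tested genes had groups that did not overlap. The summed level of the 12 markers did not order the libraries as Kdr and Flt1 did. Pecam1, an adhesion molecule of endothelium that was lowest in WT1 and WT2 like both receptors, was at 0.317, 0.263 and 6.43 FPKM in WT1, WT2 and WT3 and at 7.99, 2.49 and 3.52 FPKM in cKO1, cKO2 and cKO3. Of 12 endothelial markers, 11 had a higher mean in the cKO libraries and 0 of 10 tested passed (limma). Without WT3, 2 passed, Pecam1 and Esam, both higher, where 3.89% of all tested genes passed. The median log2 difference of the markers tested was then 1.32, against 0.87 with all libraries. No marker of the 12 was listed at 0 in all libraries. Their summed level was 126.8, 105.1 and 103.5 FPKM in the wild-type and 182.7, 110.7 and 109.1 FPKM in cKO1, cKO2 and cKO3, so WT3 was the lowest library and WT1 the second highest. Most of that sum was Cdh5 and Eng. The part of endothelial cells in the levels of Pdgfb, Pgf, Kdr and Flt1 was not tested.

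Genes that VEGF is known to induce in endothelium had a higher mean in the cKO libraries in 13 of 13 cases, and the median log2 difference was 0.69 over the 11 tested, of which 0 passed (limma). Angpt2, a ligand that loosens the vessel wall, was at 1.27, 0.50 and 11.4 FPKM in WT1, WT2 and WT3 and at 20.5, 9.64 and 15.8 FPKM in cKO1, cKO2 and cKO3 (log2 difference 2.17, SE 0.74; limma, adjusted p = 0.650). Plvap, a protein of endothelial fenestrae, had 1.47 ± 1.2 and 5.22 ± 3.56 FPKM (SD, n = 3 each). Esm1, a proteoglycan of tip cells, had 2.02 ± 2.93 and 5.11 ± 2.56 FPKM. The peptide ligand Apln had 34.6 ± 6.65 and 47.9 ± 8.96 FPKM. Without WT3 the median was 1.11 and 3 of the 11 passed, Angpt2, Esm1 and Kdr, all higher (limma, adjusted p = 0.0111, 0.0447 and 0.0491), where 2.47% of all tested genes passed as higher. Kdr is also the receptor counted above. Over all tested genes the median was 0.08 with all libraries and 0.11 without WT3. The endothelial markers tested had medians of 0.87 and 1.32 in these settings. The part of endothelial cells in the levels of the induced genes was not tested.

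Oxygen sensing genes were examined because hypoxia-inducible factors are known to drive Vegfa transcription. Of 14 tested, 12 were above 0 with a median log2 difference of 0.26, and 0 passed (limma). Without WT3 the median was 0.61 and again 0 passed. Groups then did not overlap for 7 of the 15 genes in the list, all higher, beside 41.3% of all tested genes. With all libraries this held for 1 of the 15, beside 11.3% of all tested genes. Egln3, a prolyl hydroxylase that is itself a target of these factors, was at 3.95, 5.22 and 63.4 FPKM in WT1, WT2 and WT3 and at 66.8, 86.9 and 10.5 FPKM in cKO1, cKO2 and cKO3. Like Vegfa it was low in WT1 and WT2, and cKO3 was its lowest cKO library. Ddit4, a stress-induced inhibitor of mTOR signalling, had 71.3 ± 39.6 and 185.5 ± 92.8 FPKM (SD, n = 3 each). Hif1a, which encodes the oxygen-regulated subunit, had 64.4 ± 41.4 and 91.1 ± 26.7 FPKM, and Hif1an, its asparaginyl hydroxylase, 7.16 ± 1.03 and 8.71 ± 0.0415 FPKM. The summed level of the 15 genes of this list was 405.5, 425.6 and 1010 FPKM in the wild-type and 919.9, 1190 and 509.1 FPKM in cKO1, cKO2 and cKO3. The part of oxygen supply in the Vegfa values was not tested.

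**Figure D4:**
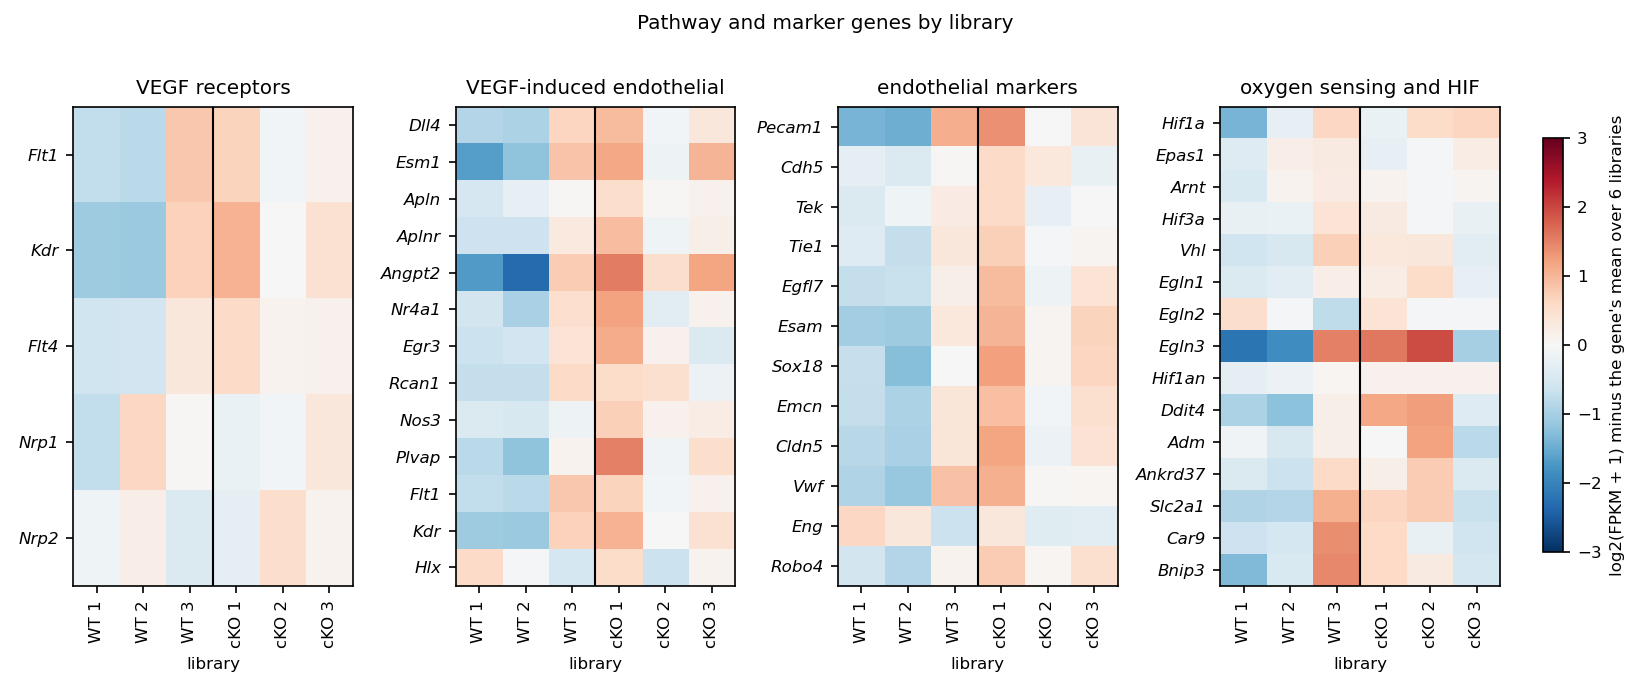
Colour gives log2(FPKM + 1) minus the mean of the gene over the 6 libraries, for VEGF receptors, VEGF-induced endothelial genes, endothelial markers and oxygen sensing genes, with libraries in columns and a line between genotypes. In most rows WT1 and WT2 are blue and WT3 is red, as in Kdr at 0.236, 0.210 and 3.19 FPKM.

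Enzymes that release or activate these ligands were measured as a further list of 8 genes, of which 6 were tested and 0 passed (limma), with a median log2 difference of 0.50. Furin, the convertase that cuts several VEGF and PDGF precursors, was at 20.6, 20.4 and 27.4 FPKM in WT1, WT2 and WT3 and at 44.2, 34.3 and 30.6 FPKM in cKO1, cKO2 and cKO3. Its groups did not overlap (log2 difference 0.65, SE 0.22; limma, adjusted p = 0.650). Plau, the urokinase gene, had 64.2 ± 23.4 and 41.2 ± 0.473 FPKM (SD, n = 3 each), with all cKO values below all wild-type values. Furin and Plau, 1 higher and 1 lower, were the only genes of the 8 without overlap, beside 11.3% of all tested genes. Ccbe1, a cofactor of Vegfc cleavage, had 11.7 ± 9.11 and 18.8 ± 4.38 FPKM, and Plat, a protease that activates the C chain of PDGF, 7.56 ± 6.43 and 9.65 ± 0.991 FPKM. Without WT3 the median was 0.82, and Ccbe1 at 1.40 and Plat at 1.13 (log2) passed (limma, adjusted p = 0.0392 and 0.0368), where 3.89% of all tested genes passed.

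Among 20 adaptors and kinases below these receptors, 14 had a log2 difference above 0, with a median of 0.18, and 0 passed (limma). Src, a tyrosine kinase recruited by VEGF and PDGF receptors, was at 9.87, 8.73 and 11.9 FPKM in WT1, WT2 and WT3 and at 19.4, 23.2 and 17.1 FPKM in cKO1, cKO2 and cKO3. Its groups did not overlap, and WT3 lay with the other wild-type libraries (log2 difference 0.90, SE 0.21; limma, adjusted p = 0.545). The adaptor Grb2 had 26.4 ± 2.49 and 33.7 ± 4.68 FPKM (SD, n = 3 each), also without overlap. These 2 of 20 genes without overlap stand beside 11.3% of all tested genes. Fyn, a kinase of the Src family, had 11.5 ± 6.31 and 16.1 ± 0.917 FPKM, and the adaptor Nck2 4.91 ± 3.12 and 7.81 ± 2.48 FPKM. Without WT3, Src and Fyn passed (limma, adjusted p = 0.0484 and 0.0498), where 3.89% of all tested genes passed.

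Secreted inhibitors of angiogenesis and matrix proteins that bind the ligands had a median log2 difference of 0.08 over 12 tested genes, of which 0 passed (limma). Pf4, a chemokine that inhibits vessel growth and is made by platelets and macrophages, was at 659.1, 524.0 and 203.3 FPKM in WT1, WT2 and WT3 and at 207.7, 99.9 and 118.4 FPKM in cKO1, cKO2 and cKO3 (log2 difference -1.61, SE 0.48; limma, adjusted p = 0.596). Vash1, vasohibin, had 0.479 ± 0.540 and 1.56 ± 0.520 FPKM (SD, n = 3 each) without overlap. It was the 1 gene of the 13 listed without overlap, beside 11.3% of all tested genes. Col18a1, the collagen from which endostatin is cut, had 5.18 ± 4.95 and 11.2 ± 3.67 FPKM, and Sema3f, a ligand of Nrp2, 1.59 ± 0.615 and 2.97 ± 1.58 FPKM. Without WT3 the median turned to -0.08, and 3 genes of this list passed, beside 3.89% of all tested genes. Col18a1 was higher at 1.83 (log2), Pf4 lower at -2.11 and Serpinf1, pigment epithelium-derived factor, lower at -1.18 (limma, adjusted p = 0.0219, 0.0233 and 0.0291).

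Markers of the cell types of the testis were summed beside the ligands, and 0 genes of any of these lists passed with all libraries (limma). The summed FPKM of 12 macrophage markers was 1084, 917.3 and 262.5 in WT1, WT2 and WT3 and 271.4, 168.1 and 186.8 in cKO1, cKO2 and cKO3, and 11 of 12 had a lower mean in the cKO libraries. Cx3cr1 and Ptprc, which define some of these cells, stayed under 1 FPKM. The sum of 6 peritubular myoid markers was 3050, 2399 and 506.1 FPKM in the wild-type and 672.7, 802.6 and 1263 FPKM in cKO1, cKO2 and cKO3, with 3 of 6 lower in the mean. The sum of 8 fibroblast and stromal markers was 650.4, 903.3 and 456.2 FPKM in the wild-type and 551.4, 513.0 and 842.3 FPKM in cKO1, cKO2 and cKO3, with 7 of 8 lower. The sum of 6 pericyte markers was 14.7, 12.8 and 32.7 FPKM in the wild-type and 34.5, 22.0 and 29.9 FPKM in cKO1, cKO2 and cKO3, with 5 of 6 higher. That of 13 Sertoli markers was 280.7, 259.6 and 677.7 FPKM in the wild-type and 664.6, 508.2 and 781.1 FPKM in cKO1, cKO2 and cKO3, with 10 of 13 higher. That of 6 Leydig markers was 361.9, 197.2 and 224.2 FPKM in the wild-type and 241.4, 171.7 and 142.4 FPKM in cKO1, cKO2 and cKO3, with 3 of 6 lower. The macrophage and myoid sums were highest, and the Sertoli and pericyte sums lowest, in the 2 wild-type libraries where Vegfd was high, whereas the Leydig and the fibroblast and stromal sums did not separate those libraries from the others. Single genes were less uniform than the sums: 3 of 6 myoid and 3 of 6 pericyte markers had WT1 and WT2 on one side of all cKO libraries, against 9 of 12 macrophage markers, all lower in cKO, and 9 of 13 Sertoli markers, 8 higher and 1 lower. Of all tested genes, 41.3% had WT1 and WT2 on one side in this way, so 3 of 6 is near that share.

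Without WT3, where 3.89% of all tested genes passed, calls were made in 6 of the 7 marker lists (limma). WT3 was picked for its likeness to the cKO libraries. These calls, and those without WT3 in the pathway lists above, are thus a description and not a test of genotype. Of 11 Sertoli markers tested, 5 passed as higher, Sox9, Cldn11 and Clu among them, and 1 as lower, the inhibin subunit gene Inhbb. Of 10 macrophage markers, 4 passed, all lower: Lyz2, Csf1r, Ctss and Tyrobp. The smooth muscle genes Acta2 and Tagln passed as lower among 6 myoid markers, and Ogn as lower among 5 fibroblast and stromal markers. Of 4 Leydig markers, Star, which moves cholesterol into mitochondria, passed as higher and the steroid dehydrogenase gene Hsd3b1 as lower. The endothelial calls were the 2 given above, and 0 of 3 pericyte markers passed. The part of each cell type in the levels of the ligands was not tested.

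The genes whose pattern over the 6 libraries was most like that of each member were taken as those with the highest Pearson correlation of log2(FPKM + 1) among 11004 tested genes with names other than predicted genes, clones or pseudogenes. For Vegfa these were Kit, Galr2 and Krt23, and for Pgf Prdx6, Slc8b1 and Mapk8ip3. For Pdgfa they were Stac2, Pex10 and Col23a1, and for Pdgfb B4galnt1, Acp7 and Bcl2l2. For Vegfd they were Bmp4, Ggt5 and Fbxl7, of which Bmp4, a secreted growth factor, was at 9.49, 17.9 and 1.66 FPKM in the wild-type and at 1.74, 1.11 and 2.70 FPKM in cKO1, cKO2 and cKO3. For Vegfb they were Ndufa10, Osgin1 and Arrb2, for Vegfc Ifngr2, Ldlrad4 and Myo19 and for Pdgfc Tbc1d31, Plxnc1 and Cmpk1. The receptors were most like Fbn1, Plagl1 and Arhgap6 for Pdgfra and Rpa2, Cdca4 and Itsn1 for Pdgfrb. The likeness is a description of 6 points that fall into separate sets of libraries, so many genes share it.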

How the data were processed

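RNA of 6 cultures was sequenced, and each library has 1 file with a value per gene. The unit was not stated and was read from the deposited values as FPKM. Column sums ran from 291453.5 to 346688.4. Multiplied by exonic length, the values were whole multiples of a step particular to the library, within a tolerance of 0.02 times the fragment number (99.1% to 99.5% of values of genes with 1 exon and at most 10 fragments). The submitters' processing notes name FastQC, HISAT2 2.1.0 and the genome build mm8. How fragments were counted, and with which annotation and strand, is not given in the sources used here. Overlapping antisense genes therefore cannot be separated. Of 29275 identifiers, 28932 matched a symbol. Promoter sequences and their coordinates are RefSeq's on GRCm38.p6, and exonic lengths are from GENCODE M21 on the same build.

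Values were transformed to log2(FPKM + 1), which understates the fold change of low genes. Genes that reached 1 FPKM in 3 or more libraries were tested with genotype as the only term (limma 3.58.1 with trend, R 4.3.3, two-sided, Benjamini-Hochberg over 12284 genes, threshold 0.05). Arhgef15, below the filter, is given by its levels. The fit was tested on simulated data. Tables and figures used Python 3.11.15. The labels call the libraries of a group biological replicates. They do not say whether each came from its own animal, and p-values measure the spread among these libraries. The members and gene lists were chosen with earlier results of these data known. Named genes were the 10 members, Arhgef15, up to 4 tested genes of each of 7 pathway lists with the smallest p, and the 3 genes most like each member. Bmp4's values were added after they were seen, as were those of Serpinf1 and the markers named. Alternatives were other pseudocounts and filters, median-ratio and quantile scaling, array weights, a replicate block, and the omission of single libraries.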

Additional observations from a re-analysis of the deposited data

How the results depend on the processing

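Leaving out 1 library moved most of these results. The number of genes past the threshold was 2 with all libraries and ranged from 0 to 478 with 1 left out: 478 when WT3 was left out, 4 for WT1, and 0 for each of the others (limma, 391 to 819 genes at an unadjusted p under 0.05 there). With no filter on low values it was 0 (1323 at an unadjusted p under 0.05). Of the 10 members, 0 passed in every setting except without WT3, where 4 did. The number of members with groups that do not overlap, an alternative chosen after seeing the data, ranged from 1 to 7 with a library left out: 7 without WT3 and 3 (Pdgfa, Pdgfb and Pdgfra) without cKO3. The log2 differences with a library left out ranged from 0.62 to 2.01 for Vegfa, -3.45 to -1.52 for Vegfd, 0.33 to 2.06 for Pgf, 0.55 to 1.18 for Pdgfa, 1.90 to 3.54 for Pdgfb and 0.08 to 0.35 for Pdgfc. They changed sign in 4 genes: -0.48 to 0.0325 for Vegfb (without WT1), -0.17 to 0.39 for Vegfc (without cKO2), -0.44 to 0.0727 for Pdgfra and -0.49 to 0.12 for Pdgfrb (both without WT2). No member changed sign or passed under the other pseudocounts and filters, the other scalings, array weights (whose fit stopped before its tolerance) or the replicate block. The replicate block gave 0 genes past the threshold (963 at an unadjusted p under 0.05). The labels give only a shared number, so the numbers were not taken as pairs. The deviations of same-numbered libraries correlated at 0.14, 0.03 and -0.21, and those of differently numbered libraries at -0.45 to 0.48. Deviations from a mean of 3 libraries depend on each other, so these correlations cannot show or exclude pairs.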
